A study of Arabidopsis thaliana with 37 samples.

Results

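The genes described here are 7 Arabidopsis thaliana genes whose products act in, or are tied to, the growing cell wall. They were read by 8 of the 8247 probe sets on the array. They are the expansin genes EXPA8 (AT2G40610) and EXPA15 (AT2G03090), the xyloglucan-modifying gene EXGT-A3 (AT2G01850) and the glycosyl hydrolase gene GH9B6 (AT1G23210). The others are the cell wall protein gene AT2G20870, the glycine-rich protein gene AT2G05540 and EXO, or EXORDIUM (AT4G08950). They were selected on the mutant-against-wild-type differences of these same arrays, so the mutant differences of the 7 genes are given as a description, without a test. Which comparison selected each gene is not recorded for all of them. By locus name, 5 of the 7 lie on chromosome 2, which holds 37.05% of the 3592 loci the array annotation names.

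A growing plant cell is held by cellulose fibrils tied together by xyloglucan and pectin, and it enlarges when that network yields to turgor. Expansins loosen the bonds between the polymers without cutting them, whereas xyloglucan endotransglucosylases cut xyloglucan chains and rejoin them, and family 9 endoglucanases cut glucan chains. In young leaves the genes for such proteins are under hormonal control, and EXO is known for its role in brassinosteroid-promoted leaf expansion.

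Total RNA of seedlings was hybridised to 37 one-colour Affymetrix arrays that fall into 11 groups by genotype and age. The groups of ago1-10, a mutant allele of the slicing protein AGO1 of the microRNA pathway, held 4 arrays at 9 days, 3 at 21 days and 3 at 35 days. Those of ago1-11, another AGO1 allele, held 4 arrays at 9 days and 3 at 21 days, and dcl1-9, a mutant allele of the microRNA-processing enzyme DCL1, had 4 arrays at 21 days. The wild-type strain Ler had 2 separate sets at 21 days, labelled Ler (2) with 4 arrays and Ler (1) with 3, besides 3 arrays at 9 days, and the wild-type strain Col had 3 arrays at 21 days and 3 at 9 days. The array titles start with a code, and the 9-day groups of ago1-10 and of ago1-11 each mix codes. At 21 days each ago1 allele has a single code. In Ler (2) the title of replicate 1 starts otherwise than those of the other arrays. That array reads the highest of Ler (2) on EXPA8, EXGT-A3, AT2G05540 and both AT2G20870 probe sets, but not on EXPA15, GH9B6 or EXO. The ago1-10 arrays of 35 days have another code than those of 21 days, so age and code cannot be told apart there. The labels do not name the parent strain of the ago1 alleles. Ler was set against them from background knowledge, and the differences from Col stand beside it. The labels call all samples seedlings, and neither AGO1 nor DCL1 has a probe set that the annotation names.

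Values are MAS5 signal, scaled so that all arrays share a median of 19.1. The array medians before that scaling ran from 11.3 to 30.2. A signal below 11.96, the 40th percentile of all values, is treated as dim, and the order of dim values carries no weight. A log2 difference is the difference between group means of log2 signal, with 1.14 added before the logarithm. The 3 or 4 arrays per group limit the precision, and signal of one probe set is not comparable with that of another. In RNA of seedlings, fewer cells of a type and less RNA per cell cannot be told apart. Of 9 leaf markers 7 were measured, and of 6 root markers 0, of 9 flower markers 1 and of 7 pollen and anther markers 3.

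**Figure D1:**
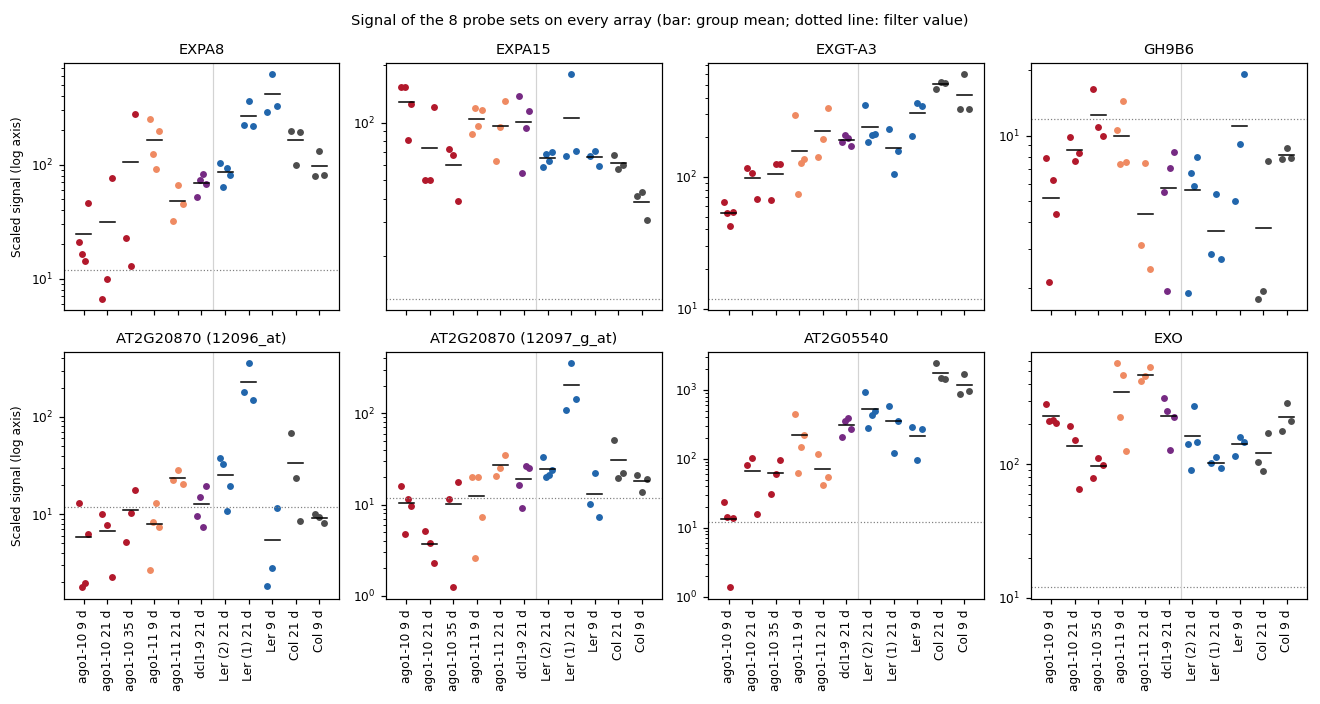
Scaled signal (log axis) of the 8 probe sets on each of the 37 arrays by group; a point is an array, the black bar the group mean, and the dotted line the value of 11.96 below which a signal is treated as dim. EXPA8 is low in ago1-10 apart from 2 arrays, AT2G20870 is high in Ler (1), AT2G05540 is lowest in ago1-10 at 9 days, and EXO is highest in ago1-11 at 21 days.

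EXPA8, an alpha-expansin gene, was high in Ler seedlings of 9 days and low in ago1-10. In ago1-10 at 9 days its signal was 21, 16.4, 14.2 and 46.1, against 288, 617 and 327 in Ler of the same age. Every ago1-10 array lay below the lowest Ler array, and the group means, 24.4 ± 14.7 in ago1-10 and 411 ± 179.6 in Ler (SD, n = 4 and 3), differed 16.8-fold, a log2 difference of -4.08. ago1-11 of 9 days gave 249, 124, 91.8 and 197, also below every Ler array, with a log2 difference of -1.33 (mean 166 ± 71.0, SD, n = 4).

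The comparison with Col at 9 days had another shape, since EXPA8 was lower in Col (80.0, 131 and 81.1) than in Ler. Relative to Col the ago1-10 arrays were still all lower, with a log2 difference of -2.06, whereas the ago1-11 arrays overlapped Col, with a difference of 0.69. The sign for ago1-11 at 9 days thus turned with the wild type.

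At 21 days EXPA8 read 6.72, 10.06 and 76.7 in ago1-10, 32.1, 65.9 and 44.8 in ago1-11 and 52.1, 73.0, 82.6 and 68.0 in dcl1-9. The wild types read 104, 63.4, 93.6 and 80.6 in Ler (2), 223, 357 and 219 in Ler (1) and 198, 100.1 and 194 in Col. Both ago1 alleles and dcl1-9 lay below every Ler (1) array, but the Ler (2) arrays lay below every Ler (1) array as well. The log2 difference of ago1-10 was -3.78 from Ler (1), -2.16 from Ler (2) and -3.05 from Col. That of ago1-11 was -2.48 from Ler (1), -0.86 from Ler (2) and -1.75 from Col. The arrays of both ago1 alleles overlapped Ler (2) and lay below every Col array. For dcl1-9 it was -0.30 from Ler (2), the set it was compared with here, with overlapping arrays, and -1.91 from Ler (1).

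A single array stood apart in ago1-10 at both later ages. Replicate 3 at 21 days read 76.7, against 6.722 and 10.06 on the other arrays of that group. Its title carries the number 3, as do the titles of 2 of the 3 ago1-10 arrays of 35 days. Of these 2, replicate 3 is the high one described next, and replicate 2, at 12.9, is the lowest of its group. The titles of the other ago1-10 arrays of 21 days carry 2. Those other arrays are dim, so the size of the difference from Ler (1) depends on the constant added, and with 16 in place of 1.14 it was -2.86. At 35 days EXPA8 read 22.8, 12.9 and 278, and no wild type of that age was measured. Replicate 3 lay above every Col array of 9 and 21 days but below every Ler array of 9 days. Replicates 1 and 2 stayed in the range of the younger ago1-10 seedlings. Over the 3 ages ago1-10 averaged 24.4 ± 14.7, 31.2 ± 39.5 and 105 ± 150.5 (SD, n = 4, 3 and 3). The ranges of the neighbouring ages overlap, and the SD at 35 days exceeds the mean. ago1-11 had all 3 arrays of 21 days below all 4 of 9 days, a log2 difference of -1.73.

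Leaf marker signal moved with EXPA8 in part. The summed signal of the 7 measured leaf markers ran from 9442 to 12820 in ago1-10, against 19850 to 24200 in Ler, at 9 days. At 21 days it ran from 6316 to 10060 in ago1-10, from 15360 to 17090 in ago1-11 and from 10660 to 12790 in dcl1-9. It ran from 13080 to 16710 in Ler (2) from 17780 to 19440 in Ler (1) and from 16220 to 24540 in Col. In ago1-10 at 35 days it ran from 6907 to 18000, the widest range of the 11 groups, and in ago1-11 at 9 days from 13550 to 23750, against 13360 to 16900 in Col. The part of leaf tissue in the EXPA8 differences was not tested.

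EXPA15, the other alpha-expansin, did not follow EXPA8. At 9 days it read 154, 153, 80.6 and 125 in ago1-10 and 87.5, 119, 95.6 and 116 in ago1-11, against 67, 70.7 and 59.5 in Ler and 41.3, 43.4 and 30.8 in Col. Both alleles lay above every wild-type array of that age. The log2 difference was 0.91 from Ler and 1.68 from Col in ago1-10. In ago1-11 it was 0.65 from Ler and 1.42 from Col.

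At 21 days EXPA15 overlapped between mutants and wild types. It averaged 73.6 ± 40.7 in ago1-10, 95.9 ± 33.7 in ago1-11 and 100.3 ± 35.7 in dcl1-9 (SD, n = 3, 3 and 4). The wild types averaged 65.2 ± 5.43 in Ler (2), 106 ± 63.9 in Ler (1) and 61.6 ± 5.504 in Col (SD, n = 4, 3 and 3). In Ler (1) replicate 2 stood apart at 179, against 66.5 and 71.0 on the other arrays. At 35 days ago1-10 read 72.3, 67.6 and 39.0.

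EXGT-A3, which encodes a xyloglucan endotransglucosylase, was lowest in ago1-10 at 9 days. It read 64.8, 53.3, 42.1 and 54.4 in ago1-10, against 205, 364 and 344 in Ler and 329, 600.3 and 327 in Col. Every ago1-10 array lay below every wild-type array, with a log2 difference of -2.45 from Ler and -2.89 from Col. ago1-11 read 292, 74.6, 128 and 136, which overlapped Ler (-1.07) and lay below Col (-1.51).

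At 21 days EXGT-A3 read 118, 106 and 68.4 in ago1-10, 142, 194 and 332 in ago1-11 and 185, 209, 199 and 172 in dcl1-9, against 350, 183, 208 and 213 in Ler (2), 231, 106 and 157 in Ler (1) and 465, 526 and 518 in Col. The ago1-10 arrays overlapped Ler (1) and lay below Ler (2) and Col, with differences of -0.71, -1.27 and -2.39 in that order. ago1-11 differed by 0.42 from Ler (1), -0.14 from Ler (2) and -1.26 from Col. dcl1-9 overlapped both Ler sets, with a difference of -0.28 from Ler (2) and 0.28 from Ler (1), so its sign turns with the set, and with no further scaling the first of these was 0.10. Within ago1-10 all 3 arrays of 21 days lay above all 4 of 9 days (0.83), and at 35 days it read 67.3, 125 and 126. The s in the probe set's name marks probes shared by similar transcripts, so a related gene may contribute to this signal.

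GH9B6, a family 9 glycosyl hydrolase gene, was dim on nearly all arrays. Its group means ran from 3.65 in Ler (1) to 12.4 in ago1-10 at 35 days, and most arrays lay below 11.96. In ago1-10 at 21 days it read 9.84, 7.67 and 8.34, against 2.87, 5.38 and 2.70 in Ler (1) and 1.79, 1.93 and 7.60 in Col. These arrays do not overlap, but all the values are dim, and the log2 difference of 1.063 from Ler (1) was 0.33 with 16 added before the logarithm in place of 1.14. It is therefore not read as a difference in level.

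AT2G20870, annotated as a cell wall protein, was bright in 1 group of the 11. It is read by 2 probe sets, called A (name ending in _at) and B (name ending in _g_at) here. In Ler (1) at 21 days set A read 179, 358 and 149.9, and set B read 109.8, 354 and 144. Every other array of the series lay lower on both probe sets, the next being Col replicate 1 at 21 days with 67.6 on probe set A and 51.25 on probe set B. Ler (2), the same strain and age, read 37.9, 32.4, 10.7 and 19.6 on probe set A and 33.6, 20.2, 20.9 and 23.7 on probe set B.

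This makes the mutant differences of AT2G20870 depend on the Ler set. On probe set A ago1-10 read 9.92, 7.76 and 2.27 and ago1-11 22.2, 28.3 and 20.2 at 21 days. On probe set B ago1-10 read 5.08, 3.84 and 2.27 and ago1-11 20.6, 25.0 and 35.1. From Ler (1), ago1-10 differed by -4.94 and -5.24 on the log2 scale, and from Ler (2) by -1.77 and -2.41. The ago1-10 values are dim, and with 16 added before the logarithm the differences from Ler (1) were -3.36 and -3.31.

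For ago1-11 the difference was -3.12 and -2.71 from Ler (1), 0.04 and 0.12 from Ler (2), and -0.05 and -0.10 from Col. Against Ler (2) and Col the ago1-11 arrays overlapped the wild type. dcl1-9 read 9.49, 15.0, 7.33 and 19.4 on probe set A and 16.5, 9.12, 26.6 and 25.0 on probe set B, which overlapped Ler (2) at -0.86 and -0.41 and lay below Ler (1). At 9 days the group means of both probe sets were at most 17.98 in ago1-10, ago1-11, Ler and Col, and the arrays overlapped. ago1-11 was higher at 21 than at 9 days with no overlap on both probe sets (1.60 on probe set A and 1.33 on probe set B). On probe set B the margin was narrow, 20.59 against 20.25. In ago1-10 at 35 days AT2G20870 averaged 11.0 ± 6.21 on probe set A and 10.14 ± 8.34 on probe set B (SD, n = 3), mostly dim values.

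AT2G05540, a gene for a glycine-rich protein, was low in ago1-10 seedlings of 9 days and high in Col. In ago1-10 at 9 days it read 23.9, 14.5, 1.36 and 13.8, against 285, 96.5 and 269 in Ler and 873, 1709 and 975 in Col. The ago1-10 arrays lay below all wild-type arrays, with a log2 difference of -4.16 from Ler and -6.69 from Col. Since 1 of the ago1-10 values is near 0, the size depends on the constant added, and with 16 added the difference from Ler was -2.92. ago1-11 at 9 days read 453, 62.2, 147 and 222, which overlapped Ler (-0.16) and lay below Col (-2.69).

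At 21 days both ago1 alleles lay below every wild-type set. AT2G05540 read 82.1, 104 and 15.99 in ago1-10 and 118, 41.1 and 54.3 in ago1-11, against 918, 283, 433 and 489 in Ler (2), 574, 121 and 347 in Ler (1) and 2440, 1475 and 1425 in Col. The log2 difference of ago1-10 was -2.45 from Ler (1), -3.19 from Ler (2) and -5.02 from Col. That of ago1-11 was -2.15, -2.89 and -4.72 in the same order. dcl1-9 read 204, 354, 392 and 270.3, which overlapped both Ler sets. In ago1-10 at 35 days it read 30.5, 59.9 and 96.3, above all 4 arrays of 9 days and overlapping those of 21 days. All 3 Col arrays of 21 days and 2 of the 3 of 9 days rest on AT2G05540 cells with exactly 3 decimals, which were read as 1000 times the written value. Col replicate 3 of 9 days did not need that reading.

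EXO, which in leaves acts in brassinosteroid-promoted expansion, stood higher in ago1-11 than in any wild type at 21 days. It read 420.5, 459 and 533 in ago1-11, against 141, 90.5, 273 and 148 in Ler (2), 102, 114 and 93.5 in Ler (1) and 104, 89.8 and 173 in Col. The 3 ago1-11 arrays lay above every wild-type array of that age, by 2.18 on the log2 scale from Ler (1), 1.63 from Ler (2) and 1.99 from Col. The other mutants of 21 days read 192, 152 and 65.2 in ago1-10 and 316, 252, 128 and 226 in dcl1-9, and both overlapped Ler (2). The dcl1-9 arrays lay above every Ler (1) array, with log2 differences of 0.54 from Ler (2) and 1.09 from Ler (1).

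At 9 days EXO read 284, 211, 217 and 204 in ago1-10 and 574, 225, 464 and 125 in ago1-11, against 115, 161 and 147 in Ler and 177, 291 and 213 in Col. The ago1-10 arrays lay above Ler (0.69) and overlapped Col (0.03). The ago1-11 arrays spread widely and overlapped both Ler and Col. In ago1-10 EXO averaged 229 ± 36.99 at 9, 136 ± 65.0 at 21 and 96.7 ± 15.7 at 35 days (SD, n = 4, 3 and 3). All 3 arrays of 21 days lay below all 4 of 9 days, and those of 35 days overlapped those of 21 days.

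**Figure D2:**
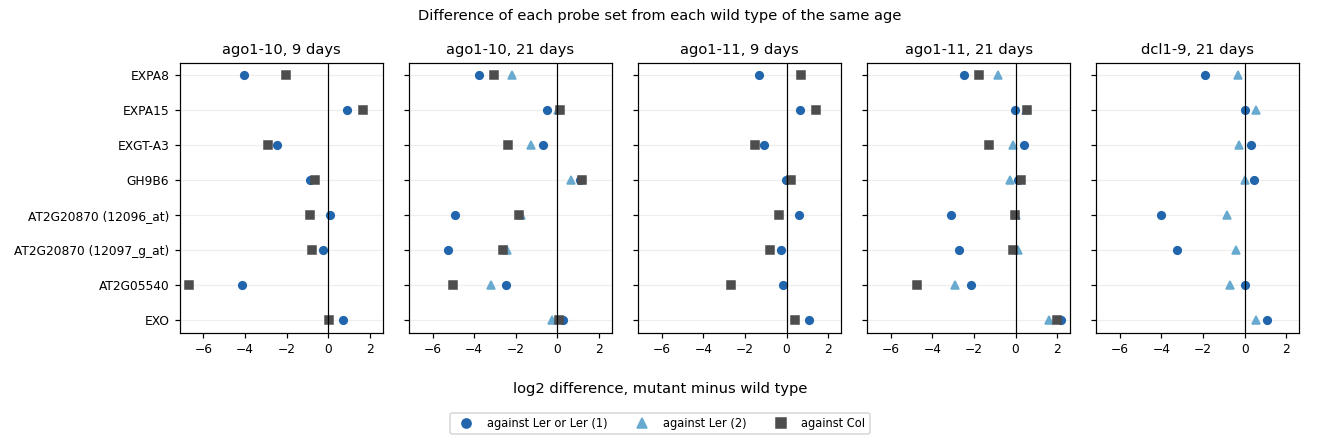
Log2 difference, mutant minus wild type, of the 8 probe sets in the mutant groups of 9 and 21 days. Wild types of the same age are Ler or Ler (1) (circles), Ler (2) (triangles) and Col (squares). dcl1-9 is drawn against Ler (1) and Ler (2) only, and was not set against Col. EXPA8 lies below 0 in ago1-10 with every wild type, while the AT2G20870 differences at 21 days lie far below 0 from Ler (1) and nearer to it from Ler (2) and Col.

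The wild types were then set side by side. The Ler arrays served as wild type in the mutant differences that selected the genes, and a gene selected for being lower in a mutant than in Ler tends to be high in those Ler arrays. Differences of these genes that involve Ler are therefore given here as a description, with no test. An exception, the age difference of AT2G20870, stands among the flagged results with that limit. The Col arrays are not known to have entered the selection, although this is not certain for EXPA15 and GH9B6. Between 21 and 9 days in Col, 0 of the 8 probe sets, which all passed the filter on dim signal, had a limma adjusted p under 0.05, and 3 had an unadjusted p under it. Of the 6049 probe sets tested 3.11% were called, a share at adjusted p. No share of all probe sets at an unadjusted p is given here, so unadjusted counts cannot be set against it. The largest of these Col differences was 1.31 for AT2G20870 on probe set A (SE 0.63, limma adjusted p = 0.289), and EXPA8 differed by 0.72 (SE 0.68, limma adjusted p = 0.652).

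With age in Ler, AT2G20870 differed most between Ler (1) at 21 days and Ler at 9 days, by 5.34 on probe set A and 3.78 on probe set B. The 9-day Ler arrays read 1.80, 2.78 and 11.6 on probe set A, all of them dim, and with 16 added before the logarithm the differences were 3.45 and 2.78. With Ler (2) as the 21-day set they were 2.17 and 0.96. EXPA8 differed by -2.19 between Ler (2) and Ler at 9 days, and by -0.58 between Ler (1) and Ler at 9 days. The age difference of AT2G20870 in Ler less that in Col was 4.03 on probe set A and 3.14 on probe set B with Ler (1), and 0.87 and 0.32 with Ler (2).

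At 9 days AT2G05540 was lower in all 3 Ler arrays than in all 3 Col arrays, with a log2 difference of -2.53. EXPA8 was higher in all 3 Ler arrays than in all 3 Col arrays, by 2.02. At 21 days AT2G20870 was higher in all 3 Ler (1) arrays than in all 3 Col arrays, by 3.08 on probe set A and 2.60 on probe set B. The Ler (2) arrays overlapped Col on both probe sets, at -0.09 and -0.22.

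EXGT-A3 and AT2G05540 were lower in both Ler sets of 21 days than in Col, on every array. The log2 difference of EXGT-A3 was -1.12 for Ler (2) and -1.68 for Ler (1). That of AT2G05540 was -1.83 for Ler (2) and -2.57 for Ler (1).

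The 2 Ler sets of 21 days share strain and age by their labels. AT2G20870 was lower in all 4 Ler (2) arrays than in all 3 Ler (1) arrays, with differences of -3.17 on probe set A and -2.83 on probe set B. Without Ler (1) replicate 2, its highest array, they were -2.79 and -2.33. EXPA8 was lower in all 4 Ler (2) arrays than in all 3 Ler (1) arrays too, with a difference of -1.61. What else differed between the sets is not stated in the labels and was not tested.

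In order of group means, neighbouring groups mostly overlapped. EXPA8 was highest in Ler at 9 days, followed by Ler (1), ago1-11 at 9 days, Col at 21 days, ago1-10 at 35 days, Col at 9 days and Ler (2), and then by dcl1-9, ago1-11 at 21 days, ago1-10 at 21 days and ago1-10 at 9 days. All 10 steps of that order overlapped, as did all 10 for EXPA15, GH9B6 and EXO. For AT2G05540 and for EXGT-A3 1 step of 10 was free of overlap, the last, above ago1-10 at 9 days. For AT2G20870 the step from Ler (1) to Col at 21 days was free of overlap on both probe sets. On probe set A so was the step from ago1-11 at 21 days to dcl1-9, by a narrow margin, 20.22 against 19.43. On probe set B the arrays of these groups overlapped. No share of all probe sets is given for steps free of overlap, so whether these counts are unusual cannot be told.

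The 7 genes did not share a pattern. Over the 11 group means of log2 signal, which share arrays and scaling, EXPA8 had a Pearson r of 0.634 with EXGT-A3 and 0.641 with AT2G05540. It had -0.143 with EXPA15 and -0.198 with EXO. With GH9B6 the r was -0.067, but GH9B6 was dim on nearly all arrays, so that r carries no weight. The 2 probe sets of AT2G20870 had an r of 0.922 with each other. The closest pair of genes was AT2G05540 and EXGT-A3, with 0.903, both highest in Col and lowest in ago1-10 at 9 days.

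Among 2653 other probe sets with 1 named gene, those most like EXPA8 over the 11 group means were AT4G02920 (r = 0.939), AT2G32760 (0.935), AT1G21630 (0.925), AT4G35240 (0.923) and AT1G03140 (0.921). Their ranges were narrow next to that of EXPA8. AT4G02920, for one, ran from 74.8 in ago1-10 at 21 days to 168.5 in Ler (1). AT2G20870 on probe set A was most like AT4G19730 (0.878), AT3G46890 (0.877), AT4G26130 (0.861), AT1G03400 (0.842) and AT4G14990 (0.834). AT4G19730 averaged 13.25 in Ler (1) and was dim in every other group, so the order of its other means carries no weight. AT3G46890 averaged 57.02 in Ler (1), 7.98 in Ler (2) and at most 12.8 in the other groups. EXO was most like AT4G37240 (0.893), AT2G27080 (0.786), AT4G01200 (0.784), AT4G27280 (0.747) and AT4G35320 (0.712). AT4G37240 averaged 46.1 in ago1-11 at 21 days, against 18.4 in Ler (2) and 22.3 in Ler (1).

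Other genes of the wall were followed as a list built from gene families, with the 7 genes left out. The list held 38 loci, of which 24 were tested, among them 5 expansins, 3 xyloglucan endotransglucosylase genes and 3 family 9 hydrolase genes. None of the 5 expansins, EXPA4, EXPA20, EXPB1, EXPB2 and EXLA2, was called in ago1-10, ago1-11 or dcl1-9. In ago1-10 at 9 days they ran from -0.33 (EXPB1) to 0.10 (EXLA2). A list of 28 brassinosteroid genes had 0 members that the annotation names.

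In ago1-10 at 9 days 1 of the 24 was called higher and 1 lower than in Ler, where 15.9% of all probe sets were called, and the list's median difference was -0.09 beside -0.01 for all probe sets. TBL26, of a family that acetylates wall polysaccharides, averaged 28.2 ± 5.01 in ago1-10 and 11.6 ± 2.90 in Ler (SD, n = 4 and 3), a log2 difference of 1.21 (limma adjusted p = 0.00896). XTH33, a xyloglucan endotransglucosylase gene, averaged 3.26 ± 1.79 in ago1-10 and 10.85 ± 2.58 in Ler (-1.51, limma adjusted p = 0.0268), both dim, so no change in level is read from it. Without Ler replicate 2 of 9 days 0 of the 24 were called, and 1 was without Ler replicate 1 or ago1-10 replicate 1 or 3.

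At 21 days 4 of the 24 were called higher in ago1-10 than in Ler (1) and 1 lower, where 20.6% of all probe sets were called, and the median was 0.08 beside 0.01. XEG113, which adds arabinose to extensins, averaged 117 ± 50.9 in ago1-10 and 39.9 ± 4.57 in Ler (1) (1.46, limma adjusted p = 0.000369). TBL39 averaged 95.2 ± 50.8 in ago1-10 and 22.6 ± 2.47 in Ler (1) (1.86, limma adjusted p = 0.00273). The pectin methylesterase gene ATPMEPCRB was higher by 1.88 (limma adjusted p = 0.00873) and XTH33 by 1.75 (limma adjusted p = 0.0121), the last of these at dim levels in both groups. GH9B13, an endoglucanase-family gene, averaged 17.9 ± 3.35 in ago1-10 and 59.9 ± 39.9 in Ler (1) (-1.48, limma adjusted p = 0.0329). Without ago1-10 replicate 2, 3 of the 24 were called. EXPA8, AT2G20870 and AT2G05540 lay lower than in Ler (1) on the same arrays.

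In ago1-11 at 9 days 0 of the 24 were called higher and 1 lower, where 4.30% of all probe sets were called, and the median was -0.34 beside -0.05. The gene was XTH33, at 1.87 ± 0.33 in ago1-11 and 10.85 ± 2.58 in Ler (-1.98, limma adjusted p = 0.0118). Both levels are dim, so no change in level is read from it, and it was not called without Ler replicate 2. At 21 days ago1-11 had 1 called higher and 0 lower, where 2.40% of all were called, and the median was 0.30 beside -0.02. The gene was again XTH33, at 12.2 ± 7.004 in ago1-11 and 1.92 ± 0.37 in Ler (1) (1.97, limma adjusted p = 0.0282), and 0 of the 24 were called without Ler (1) replicate 1 or 3 or ago1-11 replicate 2 or 3. Without Ler (1) replicate 2 there were 2. In dcl1-9 0 of the 24 were called by limma, where 0.794% of all probe sets were called, and the median was 0.10 beside -0.03. At an unadjusted p under 0.05 there were 3, a count with no matching share of all probe sets.

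Between the strains at 9 days 5 of the 24 were higher in Ler than in Col and 0 lower, where 10.5% of all probe sets were called, and the median was 0.43 beside 0.06. They were XTH33 (2.52, limma adjusted p = 0.000892), ATPMEPCRB (2.49, limma adjusted p = 0.00126), XEG113 (1.16, limma adjusted p = 0.00584), EXPA4 (1.38, limma adjusted p = 0.0106) and XTH32 (1.08, limma adjusted p = 0.0308). XTH33 was dim in both strains, at 10.85 ± 2.58 in Ler and 0.981 ± 0.661 in Col. ATPMEPCRB was dim in Col, at 7.538 ± 3.705, against 44.95 ± 10.6 in Ler. With no further scaling 1 of the 24 was called. EXPA4, an alpha-expansin like EXPA8, averaged 219.8 ± 90.8 in Ler and 79.4 ± 14.7 in Col (SD, n = 3 each). Without 1 array the count ran from 3 to 6, and it was 3 without Ler replicate 2 and without Col replicate 3. At 21 days 1 was higher in Ler (1) than in Col, TBL26 (1.11, limma adjusted p = 0.0435), dim in Col, where 6.81% of all were called. Of the 24, 0 were called without Ler (1) replicate 2 or 3 or Col replicate 1, and 2 were without Ler (1) replicate 1.

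With age, 3 of the 24 were lower in Ler (1) at 21 days than in Ler at 9 days and 0 higher, where 6.68% of all probe sets were called, and the median was -0.51 beside -0.05. They were XTH33 (-1.95, limma adjusted p = 0.018), dim at both ages, XTH26 (-2.14, limma adjusted p = 0.0341) and XEG113 (-0.96, limma adjusted p = 0.0357). XTH26 was dim in Ler (1), at 3.89 ± 1.95, against 22.59 ± 15.5 in Ler at 9 days. The count was 0 without Ler replicate 2 of 9 days or Ler (1) replicate 3, 1 without Ler replicate 3 of 9 days or Ler (1) replicate 1, and 5 without Ler replicate 1 of 9 days. In Col, where 3.11% of all were called, 1 was lower at 21 than at 9 days, the expansin-like gene EXLA2, dim at 21 days (-1.58, limma adjusted p = 0.0124), and it was not called without Col replicate 2 or 3 of 9 days or replicate 3 of 21 days. For the age difference in Ler less that in Col limma called 0 of the 24, where 0.198% of all were called. At an unadjusted p under 0.05 there were 4. Between Ler (2) and Ler (1) limma called 0, where 1.85% of all were called, and the median was -0.35 beside 0.05. At an unadjusted p under 0.05 there were 3, and neither unadjusted count has a matching share of all probe sets.

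**Figure D3:**
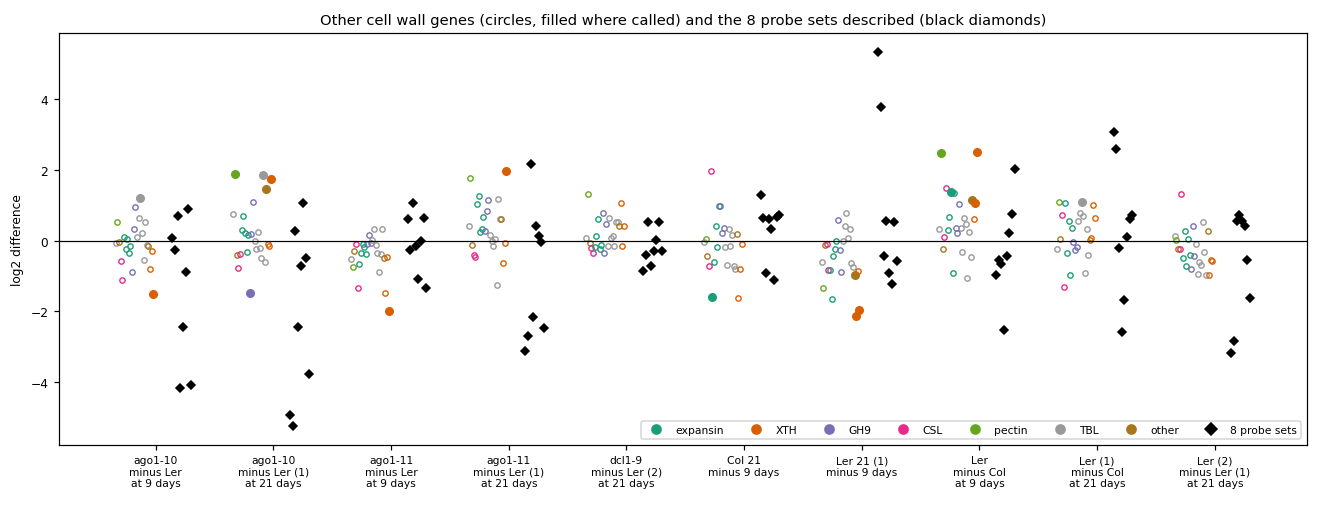
Log2 difference in the 10 comparisons for the 24 other cell wall genes tested (circles coloured by family, filled where the adjusted p is under 0.05) and for the 8 probe sets of the 7 genes (black diamonds, which carry no call here). In ago1-10 at 9 days the diamonds run from -4.16 (AT2G05540) to 0.91 (EXPA15), and the filled circles stand at -1.51 (XTH33) and 1.21 (TBL26).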

How the data were processed

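Total RNA of 37 seedling samples was read on one-colour arrays. The authors deposited 1 intensity per probe set and array, a MAS5 signal per the submitters' processing notes. The MAS5 version is not given in the sources used here. Of 305139 cells, 7913 carried exactly 3 decimals, in 491 probe sets, and were read as digit groups, 1000 times the written value. Arrays were scaled to a common median (19.1), 1.14 was added, and log2 taken. Probe sets at 11.96 or more on at least 3 arrays were kept (6049). One limma 3.58.1 model (R 4.3.3, trended eBayes) covered all 11 groups, with Benjamini-Hochberg adjustment and a threshold of 0.05. It was tested on simulated data. Arrays of a group are biological replicates in the design text, with no culture or batch named, so a p-value here speaks of array spread alone. Gene names come from the platform annotation, in which 3794 probe sets name 1 gene, 70 several and 4383 are not listed, and 3784 matched TAIR10.1 names. The members, gene lists and tests were chosen with earlier results of these data known. The model was also run for the wild-type comparisons. For the members its p-values are given only for Col and for the flagged AT2G20870 age difference between Ler and Col. The Ler arrays helped to select the members, so the flagged p-values are not independent evidence. Named genes were all members, the list genes past the threshold, and the 5 genes most like EXPA8, AT2G20870 and EXO. Alternatives changed the scaling, constant, filter, reading of decimals, groups fitted, Ler set, wild type or left out 1 array.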

Additional observations from a re-analysis of the deposited data

Results flagged for a closer look

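EXO in ago1-10 at 9 days held 1 array far from the others. Replicate 1 read 283.9, and its gap to the nearest of the other 3 arrays was 0.843 of the range of the group. The other groups of 4 arrays and the other probe sets were tested in the same way, 32 in all, and 1 was found. Chance finds about 1 in 20.

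AT2G20870 on probe set A had an age difference, 21 less 9 days, that was larger in Ler, with Ler (1), than in Col by 4.03 on the log2 scale (limma adjusted p = 0.0361 in the model of all 11 groups). The Ler arrays helped to select the gene, so this p does not stand as independent evidence. In a fit to the 4 groups alone the adjusted p was 0.101, and on probe set B the difference was 3.14 (limma adjusted p = 0.136). The call ended in 9 of the 12 fits that left out 1 array, and held without Ler replicate 1 or 3 of 9 days or Col replicate 1 of 21 days. With Ler (2) in place of Ler (1) the difference was 0.87 (limma adjusted p = 0.68).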

How the results depend on the processing

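Depth of signal limits GH9B6, XTH33, AT2G20870 outside Ler (1), AT2G05540 in ago1-10 at 9 days, and EXPA8 in ago1-10 at 21 and 35 days, where arrays lie near or below 11.96. With the deposited decimals as written, AT2G05540 turned its sign in Col between 21 and 9 days (-2.623), in Ler against Col at 9 days (3.464) and in Ler (1) against Col at 21 days (6.638), by construction, since all 3 of its Col values of 21 days and 2 of the 3 of 9 days then lose a factor of 1000. The cause of the other changes was not tested. Of the wild-type values of the 8 probe sets, 622 kept direction and side of the threshold, 22 lost the call, 5 gained it and 11 turned. The calls are not independent of the selection where Ler enters. The values also come from refits that share most arrays, so these counts show only how far the processing moves a value and are no evidence for the differences. Of the untested mutant values 657 stayed within 1 SD and 47 moved further.

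With Ler (2) as the 21-day set, the Ler age differences of EXO (0.109) and EXPA15 (-0.012) turned. With no further scaling GH9B6 in Ler against Col at 9 days turned to -0.049. Leaving out 1 array it ran from -0.225 to 0.635, and in Ler (1) against Col at 21 days GH9B6 ran from -0.155 to 0.634 and EXO from -0.381 to 0.086.

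The EXPA8 difference of ago1-10 at 9 days was -3.384 with 16 added, -2.057 from Col and between -4.421 and -3.741 without 1 array. At 21 days it was -2.164 from Ler (2) and between -4.794 and -3.141 without 1 array. In ago1-11 it was 0.692 from Col at 9 days, and -0.864 from Ler (2) and -1.753 from Col at 21 days. Without 1 array it ran from -1.558 to -0.993 at 9 days and from -2.736 to -2.230 at 21 days. In dcl1-9 it was -1.913 from Ler (1), 0.072 with no further scaling and between -0.433 and -0.174 without 1 array. The numbers in the titles of dcl1-9 and Ler (2) arrays gave correlations of deviations of 0.08, 0.087 and 0.176, so they were not taken as pairs. A fit with these title numbers as a block left out Ler (2) replicate 1 and dcl1-9 replicate 4. It gave -0.199 for EXPA8, 0.491 for EXO, -0.359 for AT2G05540 and 0 called on the wall list. In that balanced set a block does not change a difference, so these differences moved only through the arrays left out.

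The call of the AT2G20870 interaction on probe set A is not independent of the selection, since the Ler arrays helped to select the gene. It did not hold with no filter (4.033), with decimals as written (4.024), in a fit to the 4 groups alone (4.033) or with Ler (2) (0.867). Without 1 array the difference ran from 3.33 to 4.753. On probe set B the interaction, under the same limit, passed the threshold with 16 added (2.363).

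Counts of called probe sets moved over 1.5 times as follows. The Col age count, 188, was 68 with no further scaling and 67 to 138 without 1 array. The Ler age count, 404, was 138 with no further scaling, 122 with only the groups compared, 944 with Ler (2) and 95 to 592 without 1 array. Ler against Col at 9 days, 634, ran from 339 to 790 without 1 array. Ler (1) against Col, 412, was 264 with no further scaling, 158 with only the groups compared and 243 to 422 without 1 array. Ler (2) against Ler (1), 112, was 206 with no further scaling, 71 with only the groups compared and 20 to 201 without 1 array. The interaction count, 12, was 4 with no further scaling, 30 with 16 added, 6 with no filter, 7 with only the groups compared, 129 with Ler (2) and 1 to 61 without 1 array.

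Counts on the list of 24 wall genes moved too. In ago1-10 at 9 days (2) it was 1 with log2 medians centred, 6 from Col and 0 to 2 without 1 array. In ago1-10 at 21 days (5) it was 2 with only the groups compared, 10 from Col and 3 to 6 without 1 array. In ago1-11 at 9 days (1) it was 0 with medians centred, with no further scaling and with only the groups compared, 2 with 16 added, 3 from Col and 0 to 1 without 1 array. In ago1-11 at 21 days (1) it was 2 after quantile normalization, with a trimmed mean and with 16 added, and 0 with medians centred, with no further scaling and with only the groups compared. It was 7 from Ler (2), 5 from Col and 0 to 2 without 1 array. In dcl1-9 (0) it was 1 with no further scaling and with only the groups compared. The Col age count (1) was 2 with 16 added and 0 to 1 without 1 array. The Ler age count (3) was 0 with no further scaling and with only the groups compared, 6 with Ler (2) and 0 to 5 without 1 array. Ler against Col at 9 days (5) was 1 with no further scaling and 3 to 6 without 1 array. Ler (1) against Col (1) was 3 with a trimmed mean, 0 with no further scaling, with 16 added, with decimals as written and with only the groups compared, and 0 to 2 without 1 array. Ler (2) against Ler (1) (0) was 1 after quantile normalization and with a trimmed mean.

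With no further scaling the share of called probe sets that were higher was 89.9% against 40.5% in ago1-10 at 9 days, 89.2% against 47.1% at 21 days, 64.6% against 45.4% in ago1-11 at 9 days and 97.7% against 83.3% in dcl1-9. In the wild types it was 38.2% against 58.5% for Col age, 19.6% against 46.8% for Ler against Col at 9 days, 21.2% against 33.7% for Ler (1) against Col and 89.8% against 60.7% for Ler (2) against Ler (1). The median of all probe sets was then 0.54 in ago1-10 at 9 days, against -0.01. With a trimmed mean the share was 61.4% in ago1-11 at 9 days, 63.1% for Ler age against 36.1%, 53.6% for Ler (1) against Col and 43.2% for Ler (2) against Ler (1), and after quantile normalization it was 48.0% for Ler age.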
